A study of Homo sapiens with 10 samples.

Results

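Retinoid handling genes, which take up, bind, make and degrade vitamin A derivatives, were followed through the hepatic differentiation of human embryonic stem cells. They were chosen by name, with earlier results of these data known, and comprise CYP26A1, CYP26B1, RBP4, CRABP1, CRABP2, ALDH1A1, DHRS3, RDH10 and STRA6. Of these 9 genes, 8 were found among the 12125 genes of the expression table, and CYP26B1 was not analysed here. The cells were H1, an established human embryonic stem cell line, and 10 RNA libraries were made over a single culture course: daily from day 0 to day 3, on every other day from day 5 to day 13, and at day 21. Day 0 cells were untreated hESCs on Matrigel in mTeSR1. Activin A at 100 ng/ml in RPMI/B27 without insulin was given for the libraries of days 1 to 3. FGF4 at 30 ng/ml and BMP2 at 20 ng/ml, in RPMI/B27 with insulin, were given for days 5 and 7, and HGF and KGF at 20 ng/ml for days 9 and 11. For day 21, Oncostatin M (OSM) at 20 ng/ml was given in hepatocyte culture medium. The label of day 13 names OSM, whereas the protocol ends the HGF and KGF step on that day, so calls that rest on day 13 are also given with day 11 in its place. Each library is bulk RNA of 1 culture of 1 line, with no replicate, so no difference between days has a test and all are descriptions.

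In vertebrates, retinol made available by the liver travels in blood bound to RBP4, which in turn is held by transthyretin (TTR), and STRA6 is a cell surface receptor that takes retinol from RBP4. Inside the cell, RDH10 oxidizes retinol to retinaldehyde, DHRS3 reduces retinaldehyde back to retinol, and ALDH1A1 oxidizes retinaldehyde to retinoic acid. CRABP1 and CRABP2 bind retinoic acid in the cytosol, CYP26A1 and CYP26B1 hydroxylate and so inactivate it, and retinoic acid acts in the nucleus through RAR and RXR receptors. In the liver, hepatocytes secrete RBP4, and stellate cells store retinol as esters made by LRAT.

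CYP26A1 had the largest change of the 8 genes over the first 3 days, and its promoter is shown because it holds a direct repeat of the kind that RAR and RXR bind. The RefSeq promoter table (GRCh38.p14) gave windows for 7 of the 8 genes. For CYP26A1 the 250 bases before the start site of 1 RefSeq transcript, chr10:93073643-93073892 on the plus strand, are printed 5′ to 3′, with the repeat in capitals.
CYP26A1 promoter: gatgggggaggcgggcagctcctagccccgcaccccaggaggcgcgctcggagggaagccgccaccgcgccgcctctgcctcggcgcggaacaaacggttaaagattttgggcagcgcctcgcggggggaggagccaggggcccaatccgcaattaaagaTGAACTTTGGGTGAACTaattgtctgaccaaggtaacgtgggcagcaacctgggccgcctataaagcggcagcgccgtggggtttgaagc
Read on the minus strand, the 17 bases in capitals, from 93073803 to 93073819, are the following, with the repeated hexamers in capitals and the spacer in lower case.
CYP26A1 repeat: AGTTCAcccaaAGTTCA
The repeat ended 73 bases before the start site. Both strands were searched for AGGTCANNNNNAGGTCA, AGGTCANNNNNAGTTCA, AGTTCANNNNNAGGTCA and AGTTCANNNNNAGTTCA, and 0.0199% of 35116 promoter windows of 300 bases held 1 of them. Of the 16 windows of the 7 genes, only this window did, and the other CYP26A1 window did not. The same hexamers spaced by 1 or 2 bases were found in 0 of the 16 windows, against 0.0484% and 0.00570% of all windows. A single hexamer, AGGTCA or AGTTCA, which every such repeat contains, was found in 4 of the 16 windows, those of CYP26A1, DHRS3 and STRA6, against 22.6% of all windows. The letters TATAAA were found in 5 of the 16 windows, against 11.5% of all windows. These were windows of CYP26A1, STRA6 and RBP4, and those of RBP4 overlap in part, so they are not separate finds. These matches describe letters in the reference and were not tested for binding.

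The values in the table are whole numbers that the authors had normalized for GC content, and they are neither read counts nor scaled to gene length. Genes are therefore compared with themselves between days and not with each other. Every gene reached 26 in at least 2 libraries, so genes that stayed low on all days are not in the table, and the number of changing members is not evidence about the group. The totals of the libraries lay between 2330948 and 2362740, so the depth of sequencing, which is unknown from these values, could not be compared between days. Changes are differences of log2(value + 1), which understate the change of low genes. A gene was called higher or lower when this difference was at least 2, which is 4-fold, and the larger value at least 50. All 9 markers of definitive endoderm were called higher from day 0 to day 3, against 3.94% of all genes. All 5 hepatoblast markers were called higher from day 3 to day 7, against 5.63%. Of the 3 hepatocyte markers found, only SERPINA1 was called higher in each step from day 3 on. ALB and CPS1 were called higher only from day 13 to day 21, with ALB at 168 and 4866. TTR and AFP, a fetal liver protein on the hepatoblast list, sat at the highest value of the table on most later days.

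The members were highest on 6 different days. CRABP1 was highest on day 0, CYP26A1 on day 3, ALDH1A1 on day 7, DHRS3 on day 11, CRABP2 on day 13, and RBP4, RDH10 and STRA6 on day 21. Of the 8 genes, 6 were called in at least 1 of the 4 comparisons between days 0, 3, 7, 13 and 21, against 16.9% of the 10463 genes tested in any of them. RDH10 and STRA6 were called in none. In bulk RNA, a change in the number of cells that express a gene and a change in the RNA per cell cannot be told apart.

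**Figure D1:**
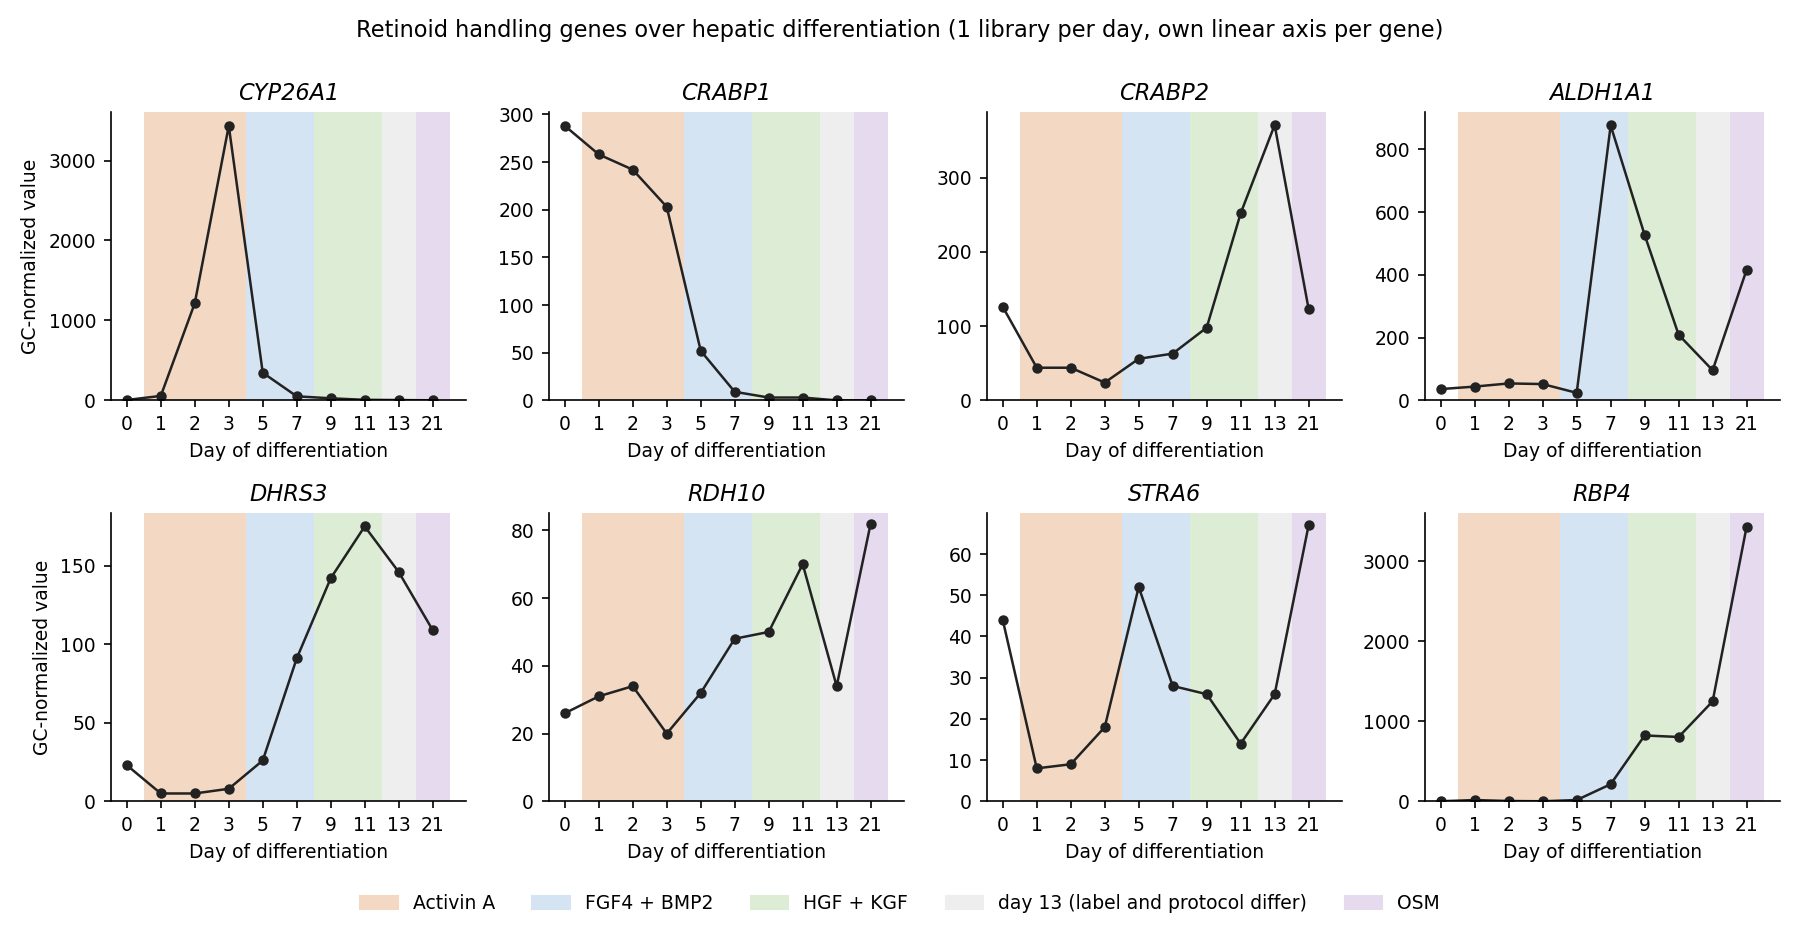
GC-normalized value (vertical axis, linear, a separate scale for each gene) of the 8 retinoid handling genes on each sampled day (horizontal axis, days evenly spaced although the intervals differ), with 1 point per library and the culture step shaded. CYP26A1 peaked at 3434 on day 3, ALDH1A1 at 876 on day 7 and CRABP2 at 371 on day 13, while CRABP1 was highest at 288 on day 0 and RBP4 at 3430 on day 21.

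CYP26A1, the enzyme that clears retinoic acid in the early embryo, is listed as ENSG00000095596 on chromosome 10 (plus strand, 94833232 to 94837641). These and the following intervals are those of the deposited table, whose header names no build, and the notes of the submitters name both hg19 and mm10. The value of CYP26A1 was 5 on day 0, 56 on day 1, 1216 on day 2 and 3434 on day 3. It then fell to 346 on day 5, a step in which 2.24% of genes were called lower, and to 51 on day 7, and was 26, 7, 4 and 1 on days 9, 11, 13 and 21. A single day, day 3, was above 50% of the highest value. Day 2 stood at 35.4% and day 5 at 10.1%.

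On the log2 scale CYP26A1 rose by 3.25 from day 0 to day 1 and by a further 4.42 from day 1 to day 2, and the step from day 2 to day 3 was not called. Of all genes tested, 1.02% were called higher in the first of these steps and 1.12% in the next. The rise of 9.16 from day 0 to day 3 was the third largest of 8934 genes tested. The difference from day 3 to day 7 was -6.05, the 23rd largest fall of 9100 genes, and that from day 7 to day 13 was -3.38, the 58th of 8892, which starts from the value of 51 and was no longer called with a minimum of 100 in place of 50. At day 3 the gene sat on a level that 10 genes of the library share within 10 units, since the highest values of the table lie on common steps, so its peak is a place on that scale and not an exact amount. The definitive endoderm markers, 9 of 9 found, were at a summed value of 36 on day 0, 3055 on day 1, 22455 on day 2 and 22925 on day 3, with FOXA2 at 0 on day 0. Most of the sum on days 2 and 3 was CER1, an inhibitor of Nodal and BMP signals, at the highest value of the table. Without CER1 it was 30 on day 0, 1417 on day 1, 3721 on day 2 and 4191 on day 3. EOMES, a transcription factor of mesendoderm, was already at 1088 on day 1, when CYP26A1 was at 56, whereas SOX17, a transcription factor of endoderm, was at 2 on day 1 and 745 on day 2. OTX2, which marks both anterior endoderm and neural ectoderm, was at 22 on day 0 and 936 on day 3. It was the only gene found of the 4 neural ectoderm markers, so the part of neural cells in the CYP26A1 peak was not tested.

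CRABP1 and CRABP2, the cytosolic binding proteins of retinoic acid, took different courses, both lower on day 3 than on day 0 and opposite in direction from then to day 13. CRABP1 (ENSG00000166426, chromosome 15, plus strand, 78632666 to 78640572) was at 288, 258, 242 and 203 on days 0 to 3, was 52 on day 5 and 9 on day 7, was 3 on days 9 and 11, and was listed at 0 on days 13 and 21. Its values with Activin A stayed at 70.5% or more of the day 0 value, and its fall came with FGF4 and BMP2. The difference from day 3 to day 7 was -4.35, the 71st largest fall of 9100 genes, and that from day 5 to day 7 alone was -2.41.

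CRABP2 (ENSG00000143320, chromosome 1, minus strand, 156669398 to 156675393) was at 126 on day 0, 44 on days 1 and 2 and 24 on day 3. It was then at 56, 63, 98, 252 and 371 on days 5, 7, 9, 11 and 13, and at 123 on day 21. It was thus low where CYP26A1 was high, and nearly the same on day 21 as on day 0. Its fall over the Activin A step, day 3 against day 0, was -2.34 on the log2 scale, and its rise between day 7 and day 13 was 2.54. From day 7 to day 11 the rise was 1.98, just short of a call. The difference from day 13 to day 21 was -1.58 and was not called. Between days 9 and 11, which share a medium, CRABP2 differed by 1.35, a difference that 0.616% of the 8444 genes tested reached in size.

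ALDH1A1, a retinaldehyde dehydrogenase that makes retinoic acid, is listed as ENSG00000165092 on chromosome 9 (minus strand, 75515578 to 75567971). Its values were 36, 44, 54 and 52 on days 0 to 3 and 24 on day 5. It was at 876 on day 7, then at 527, 209 and 96 on days 9, 11 and 13, and at 416 on day 21. The gene had a sharp first peak within the FGF4 and BMP2 step and a second, lower level in the 1 library of day 21. That library was given OSM, but the label of day 13, at 96, names OSM too. From day 5 to day 7 ALDH1A1 rose by 5.13, the 17th largest rise of 8755 genes. It fell by 3.18 from day 7 to day 13, and from day 9 to day 11 it differed by -1.33, which 0.651% of genes reached in size. The rise of 2.10 from day 13 to day 21 was the 175th of 8786 genes, and from day 11 to day 21 the difference was 0.99 and was not called, so this call rests on the low value of day 13.

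The hepatoblast markers, 5 of 5 found, were at a summed value of 127 on day 3, 3515 on day 5 and 32929 on day 7, the days between which ALDH1A1 rose. AFP was at the highest value of the table from day 7 on and TTR from day 9 on, so from those days the sum cannot follow further change of these genes. Without these genes it was 94 on day 3 and 10765 on day 7, and lay between 9315 and 9644 on days 9 to 13. HNF4A, a transcription factor of hepatocytes, was at 1044 on day 7 and 838 on day 13, when ALDH1A1 had fallen from 876 to 96. The part of the hepatoblast share of the culture in these values was not tested.

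Of the members that interconvert retinol and retinaldehyde, DHRS3 had a range of 4.87 on the log2 scale over the 10 libraries, close to the 5.13 of ALDH1A1. The range of RDH10 was smaller, at 1.98. DHRS3 (ENSG00000162496, chromosome 1, minus strand, 12627939 to 12677737), the retinaldehyde reductase, was at 23 on day 0, at 5, 5 and 8 on days 1 to 3 and at 26 on day 5. It was at 91, 142, 175, 146 and 109 on days 7, 9, 11, 13 and 21. DHRS3 was thus lowest with Activin A, while CYP26A1 was rising, and stayed above 50% of its highest value from day 7 on. It rose by 3.35 from day 3 to day 7, the 224th largest rise, a call that was lost with the minimum of 100, and its later differences were 0.68 and -0.42. RDH10 (ENSG00000121039, chromosome 8, plus strand, 74206847 to 74237516), the retinol dehydrogenase, was at 26, 31, 34 and 20 on days 0 to 3, at 32 and 48 on days 5 and 7, at 50, 70 and 34 on days 9, 11 and 13, and at 82 on day 21. Its largest tested difference of the 4 comparisons, 1.25 from day 13 to day 21, was not called, and 41.8% of all genes had a range at least as large as that of RDH10.

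RBP4, the plasma carrier of retinol, had the largest rise of the members from day 3 on. It is listed as ENSG00000138207 on chromosome 10 (minus strand, 95351444 to 95360983). Its values were 1, 16, 4 and 1 on days 0 to 3, 16 on day 5 and 214 on day 7. It was at 823, 804, 1249 and 3430 on days 9, 11, 13 and 21. The low values before day 7 differ among themselves without order, whereas each library from day 7 on was above all those before day 7. RBP4 rose by 6.75 from day 3 to day 7, the 39th largest rise of 9100 genes, although this size starts from a value of 1 and was 7.60 and 5.19 with 0.1 and 5 added in place of 1. It rose by 2.54 from day 7 to day 13, which became 1.90 and was no longer called with day 11 in place of day 13. The difference from day 13 to day 21, 1.46, was not called, while that from day 11 to day 21 was 2.09. At day 21 RBP4 sat on a level that 9 genes of the library share within 10 units.

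TTR, the partner of RBP4 in plasma, was at 0 on day 3, 26 on day 5 and 3430 on day 7, and held the top of the scale, 18734, from day 9 on, where further change cannot be seen. ALB was at 65 on day 7 and 72 on day 9, when RBP4 was already at 214 and 823. The 3 hepatocyte markers found of 7 named had a summed value of 183 on day 7, 850 on day 9, 2897 on day 13 and 24817 on day 21. SERPINA1 was listed at 0 on days 0 to 3 and reached the highest value of the table on day 21, and without it the sum was 127, 146, 257 and 6083 on these days. The part of the hepatocyte-like share of the culture in the RBP4 values was not tested.

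STRA6, the cell surface receptor of RBP4, is listed as ENSG00000137868 on chromosome 15 (minus strand, 74471807 to 74495220). It was at 44 on day 0, at 8, 9 and 18 on days 1 to 3, at 52 on day 5, at 28, 26, 14 and 26 on days 7 to 13, and at 67 on day 21. Only days 5 and 21 reached 50. None of the 4 comparisons called it, and its difference of 1.33 from day 13 to day 21 became 2.18, a call, from day 11. Exons of STRA6 overlap those of CCDC33 on the opposite strand in GENCODE release 29, as those of RDH10 overlap RDH10-AS1 and those of CRABP1 overlap AC011270.2. CYP26A1 shares exon sequence with AL358613.3 on the same strand. The sources used here do not say that counting used strand, so reads of the pairs on opposite strands may not be separated. This weighs most on the low values of STRA6 and RDH10. For the pair on the same strand, strand could not separate the reads in any case.

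Over the whole culture, the members that moved split by step. From day 0 to day 3, with Activin A, 1 of the 4 members tested was called higher (CYP26A1), where 3.94% of all genes were, and 1 lower (CRABP2), where 2.16% were. In the FGF4 and BMP2 step that ended on day 7, 3 of 6 members tested were called higher (RBP4, ALDH1A1 and DHRS3), against 5.63% of all genes, and 2 were called lower (CYP26A1 and CRABP1), against 4.41%. The median size of the difference was 3.70 for the 8 members and 0.52 for all genes tested in this step. Over the HGF and KGF step, day 7 to day 13, 2 of 5 tested were called higher (RBP4 and CRABP2), against 3.08%, and 2 lower (CYP26A1 and ALDH1A1), against 2.46%. With day 11 in place of day 13 the 2 higher calls were lost (1.67% of all genes higher) and the 2 lower calls were kept (1.07% lower). From day 13 to day 21, 1 of 6 tested was higher (ALDH1A1), against 2.28%, and 0 were lower, against 1.62%. Counted from day 11, RBP4 and STRA6 were called higher in place of ALDH1A1, against 2.87% of all genes. The median signed difference of the members was -0.43, 1.29, -0.29 and 0.62 over the 4 steps in order, with members on both sides of 0 in each.

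The step from day 5 to day 7, within 1 medium, held 4 of these changes. RBP4 and ALDH1A1 were called higher and CYP26A1 and CRABP1 lower, of 7 members tested, while 2.25% of all genes were called higher and 1.34% lower. Between days 9 and 11, which also share a medium, 0 of 5 members tested were called and 0.213% of all genes were in either direction. In that pair 95% of all genes tested differed by less than 0.68 on the log2 scale, whereas CRABP2 and ALDH1A1 differed by 1.35 and -1.33. Comparing the end points, day 21 with day 0, RBP4 (10.74), ALDH1A1 (3.49) and DHRS3 (23 and 109) were called higher, where 11.9% of all genes were. CRABP1, listed at 0 on day 21, was called lower, where 11.5% were, and the difference of CRABP2 was -0.03.

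Among the 28 pairs of members, Pearson's r of log2(value + 1) over the 10 libraries was above 0 in 16 and below 0 in 12, a description of 10 successive days of 1 course. The highest was that of RBP4 with DHRS3 (0.87), and the lowest that of RBP4 with CRABP1 (-0.97). CYP26A1 and CRABP2 had an r of -0.84, and STRA6 had no r above 0.48 with any member.

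For each member, the genes most alike in course were sought among 4323 genes with a highest value of at least 50 and a log2 range of at least 2, by the same r over the 10 libraries. Nearest to CYP26A1 was LHX1 (r = 0.96), a transcription factor of mesendoderm and the anterior organizer, followed by CCDC75 and MEIS3. Nearest to CRABP1 were C1orf187, L1TD1 and LRP8 (all r = 0.99), of which L1TD1 is an RNA binding protein of pluripotent cells. Nearest to DHRS3 were MYLIP, KIAA1217 and CEBPA (all r = 0.99), the last a transcription factor of liver and fat. For RBP4 they were GPR124, SLC23A1 and C2orf72, for ALDH1A1 UGT3A1, DOCK4 and TM6SF2, and for CRABP2 PPP3CA, IGDCC3 and CPNE2. Among those nearest to RDH10 were C1orf63 and HKDC1, and STRA6 was nearest to PPFIA4, DHRS7 and OLFML3 at an r of no more than 0.86.

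Other genes of the pathway were taken from 4 lists by role. Of the storage and transport genes, 7 of 12 named were found. LRAT, which makes retinyl esters, was at 612 on day 0, 478 on day 1 and 44 on days 2 and 3, then at 32, 12, 9, 8, 1 and 3 on days 5 to 21. LRAT fell by 3.77 from day 0 to day 3. From day 1 to day 2 it fell by 3.41, the interval in which CYP26A1 rose most and in which 0.291% of all genes were called lower. DGAT1, an acyltransferase that can also esterify retinol, was at 37 on day 3, 209 on day 7 and 430 on day 21, and its rise between days 3 and 7 was 2.47. FABP5, a fatty acid binding protein that also binds retinoic acid, was at 248 on day 0 and 527 on day 3 and at 60 on day 21, and no step of the 4 called it. In this list 0 of 5 genes tested were called higher from day 0 to day 3, against 3.94% of all genes, and 1 lower, against 2.16%. In the next step 2 of 5 were higher, against 5.63%, and 0 lower. Up to day 13, 2 of 6 were higher, against 3.08%, and 0 lower, and with day 11 the count was 2 of 5. In the last step 0 of 6 were called in either direction, from day 13 or, with 5 tested, from day 11.

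Of the list of oxidation and reduction, 9 of 21 named genes were found, ALDH1A2 not among those analysed here. Of these 9, 7, 7, 8 and 7 were tested over the 4 steps in order, and only 1 was called in any step, 1 of the 7 tested from day 13 to day 21, against 2.28% of all genes called higher. This was ALDH1A3, another retinaldehyde dehydrogenase. It was at 34 on day 0, 106 on day 3, 152 on day 5, 120 on day 7, 60 on day 11, 35 on day 13 and 230 on day 21. Its rise from day 13 was 2.68, and from day 11 the difference was 1.92 and was not called. Like ALDH1A1 it was low on day 13 and higher on day 21, while the days of the first peak differed. RDH11, ADH5 and BCO2, with values of 200 or more on day 0 and 204, 598 and 244 on day 13, were not called.

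**Figure D2:**
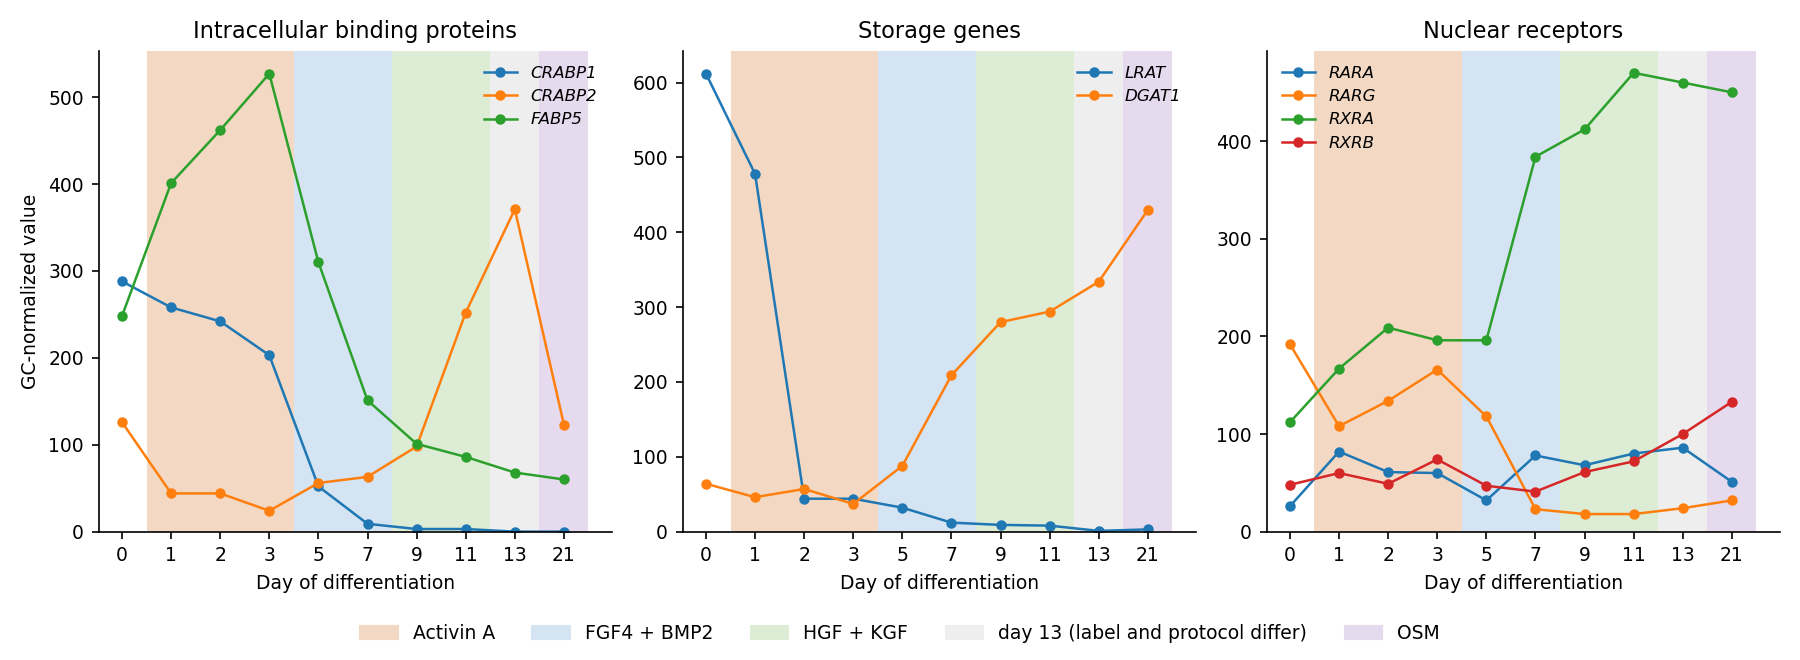
GC-normalized value (vertical axis, linear) of cytosolic binding proteins of retinoids (left), storage genes (middle) and nuclear receptors (right) on each day (days evenly spaced although the intervals differ), with 1 point per library, where heights compare days within a gene and not genes with each other. CRABP1 is at 203 or more before day 5, CRABP2 is highest on days 11 and 13 (252 and 371), LRAT drops from 478 to 44 between days 1 and 2, and RARG is at 118 on day 5 and 23 on day 7 while RXRA goes from 196 to 384.

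Of the 6 nuclear receptors of retinoids, 4 were found, and RARB was not analysed here. RARG was at 192 on day 0, 166 on day 3 and 118 on day 5, and at 23, 18, 18, 24 and 32 from day 7 on. It fell by 2.80 from day 3 to day 7, the only call in this list, 1 of 4 genes tested in that step, against 4.41% of all genes called lower. RARA had values between 26 and 86 over the 10 libraries. RXRA was at 112 on day 0, 196 on days 3 and 5, 384 on day 7 and 450 on day 21, without a call.

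Of 19 genes known to respond to retinoic acid, 7 were found. From day 0 to day 3, when CYP26A1 rose, 0 of the 7 were called, and only 1, NRIP1, reached 50 in either library. Between days 3 and 7, 3 of 4 tested were called higher, against 5.63% of all genes, and 0 lower, against 4.41%, with TGM2 (9 and 78) and NR2F2 (0 and 62) among them. Over days 7 to 13, 3 of 6 tested were called higher, against 3.08%, and 0 lower, namely HOXB3 (8 and 88), MEIS2 (20 and 123) and TGM2 (78 and 558). With day 11, when MEIS2 was at 72 and its difference of 1.80 was not called, the count was 2 of 6. From day 13 to day 21, 0 of 7 were called, and from day 11 to day 21 the count was 0 higher and 1 lower, where 2.36% of all genes were called lower. Each of these genes also responds to other signals, so these values give their course only. The labels name no retinoic acid in any medium. The methods name the B27 products by catalogue number without listing their contents, and the retinoid content of these and the other media was not examined here. A supply of retinoids from the medium was therefore not tested.

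Markers of stellate cells and stroma moved over the days on which CRABP2 and DHRS3 were high. Of 12 named, 8 were found, and LRAT is among those that are also on the storage list. Their summed value was 421 on day 3, 1742 on day 7, 5773 on day 9, 7824 on day 11, 12464 on day 13 and 14056 on day 21, with LUM and DCN listed at 0 on day 3. From day 7 to day 13, of 7 tested, 4 were called higher (PDGFRB, LUM and DCN among them), against 3.08% of all genes. In the same step 1 was called lower (RELN), against 2.46%. With day 11 the 4 higher calls were kept, against 1.67% of all genes, and the difference of RELN, -1.76, was not called. LRAT, the marker of retinoid storing stellate cells in this list, was at 12 on day 7 and 1 on day 13, and DES, NGFR, HAND2 and LHX2 were not analysed here. The part of stromal cells in the values of CRABP2 and DHRS3 was not tested. At day 21 STRA6, RDH10 and ALDH1A1 were higher than on day 13. Both macrophage markers found of 4 named were called higher in this step, against 2.28% of all genes. Their summed value was 50 on day 13, when PTPRC was at 0, and 324 on day 21. PDPN, the only mesothelial marker found of 4, was at 184 and 746 and was called higher too. These 3 calls were kept from day 11, where 2.87% of all genes were called higher. The part of these cells in the day 21 values was not tested. Markers of red blood cell precursors (4 of 4 found, none at 0 on day 13) had a summed value of 38 on day 7, 3634 on day 13 and 1754 on day 21. Of these, 4 of 4 were called higher from day 7 to day 13, against 3.08% of all genes. From day 7 to day 11 it was 2 of 2 tested, against 1.67%. The gut markers CDX2 and VIL1 (2 of 4 found) had a summed value of 32 on day 3, 360 on day 7 and 536 on day 21.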

How the data were processed

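RNA of 10 libraries, 1 per day, was sequenced by the authors after TruSeq library preparation. According to the methods, alignment used Bowtie2 (version 2.2.0), quantification RSEM (version 1.2.17) and GC normalization EDASeq (version 2.0.0). The methods name an mm10 transcriptome and the notes of the submitters both hg19 and mm10, whereas the gene identifiers are human. The deposited values are treated as scores and not as counts: they are whole numbers with nearly the same distribution in every library. This evens out the library totals, but not the effect of depth on low values, and puts the highest values on shared levels. The paper gives the depth of sequencing only as an average over the libraries.

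Columns were matched to days by column name and sample title, and 0 columns of sample values were left out. Differences of log2(value + 1) were computed with Python 3.11.15, numpy 2.4.6 and pandas 2.3.3, and plots with matplotlib 3.10.9. No test was possible with 1 library per day. Calls needed a difference of at least 2 and a larger value of at least 50, and the code was tested on simulated data. Named are all members found, pathway genes called in a step (at most 8 a list) with 8 receptor, storage, synthesis and responding genes in any case, markers of 10 cell types, and 3 genes most alike to each member. The members and lists were chosen with earlier results of these data known. FABP5, RDH11, ADH5, BCO2 and NRIP1, and the pairs of days other than those bounding the steps, were chosen after their values were seen. Promoters are those of RefSeq. Alternatives were other pseudocounts, scalings, filters and thresholds, and day 11 in place of day 13. Some named genes are not reported here.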

Additional observations from a re-analysis of the deposited data

How the results depend on the processing

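The number of members called was 2, 5, 4 and 1 over the 4 steps in order. With a log2 difference of at least 3 it was 1 from day 0 to day 3, 2 from day 7 to day 13 and 0 from day 13 to day 21, and with at least 1 it was 5 from day 13 to day 21. With day 11 in place of day 13 it was 2 from day 7 and 2 up to day 21. Under other pseudocounts, scalings and filters each count stayed within 1.5 times. Of 240 differences of single members under alternatives, 5 lost a call, 3 gained one and 0 called differences changed sign. Of the differences not called, 1 changed sign: that of RDH10 was -0.49 from day 7 to day 13 and 0.54 to day 11. Scaling by the median of ratios shifted the median difference of all genes by at most 0.085. For the lists of other genes, day 11 in place of day 13 was tried after seeing the data, as were marker sums without genes at the highest value, and the calls it ended among the named pathway genes were those of ALDH1A3 and MEIS2. By Spearman's rho, 7 of the 24 genes named as most alike were again among the 3 nearest to their member, so those names depend on the measure. No paired analysis was possible because each day has 1 library, and for the same reason no library could be left out of a group. Differences among values below about 50 cannot be read without replicates, which limits STRA6, RDH10 and the early values of RBP4 and DHRS3.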
